A study of Mus musculus with 7 samples.

Results

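The genes described here were Ahnak and 8 genes of the muscle membrane and its repair, Dysf, Anxa1, Anxa2, Anxa6, Cav3, Dmd, Utrn and Sgcb. These 9 genes were looked up by symbol in the m6A peak tables of injured muscle and of C2C12 cells, and 3 of them are among the 6392 genes listed in either table. Ahnak was chosen by its number of peaks in C2C12, 18, the most of any gene, and by their annotation, which was intron for all 18. Both of those values are therefore given only as a description. The gene next below it in C2C12 was Myh9, a nonmuscle myosin heavy chain, with 8 peaks. Of the 9 genes, Ahnak was listed in both tables, Dysf in muscle only and Anxa6 in C2C12 only, and the other 6 were listed in neither table.

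METTL3 places a methyl group on adenosines of mRNA, the mark known as m6A. MeRIP-Seq pulls fragments with this mark out of poly(A) RNA by an antibody (IP) and sequences them beside the untreated fragments (input), and a peak is a stretch where the IP holds more reads. The in vivo libraries came from muscle of C57BL/6 mice at day 2 after cardiotoxin (CTX), a snake toxin that destroys muscle fibres, with 1 IP and 1 input library from METTL3 cKO mice (Pax7CreERT2; METTL3 flox/flox) and 1 of each from CTL mice (Pax7CreERT2; METTL3 wt/wt). Both genotypes thus carry the Cre, and tamoxifen and CTX were given to both, the toxin into the tibialis anterior. Pax7CreERT2 acts in muscle stem cells, so the knockout is aimed at these cells and those that descend from them. Which cells of the muscle kept Mettl3 was not measured here. The labels name the tissue as muscle and the cell type as muscle stem cell. The age of the mice and the number pooled in a library are not given in the sources used here. The C2C12 libraries, from a mouse myoblast line, were 2 IP and 1 input. Their labels give the IP libraries the genotype Knockout and the input Normal, while the methods name no knockout for this experiment, so they are called C2C12 only. The labels' protocols describe growth and differentiation of C2C12 without saying from which state the libraries came.

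The 5412 muscle peaks carry 1 pooled value each and not 1 per genotype, and the 5433 C2C12 peaks carry positions and annotation only, so no value per library exists, no test over samples was possible and the depth is unknown. The muscle table holds peaks that passed the authors' test between the genotypes. A gene that is missing from it may still carry m6A. Neither table holds expression, so a gene without a peak cannot be told apart from a gene with little mRNA in the library. Of the marker genes of possible cell types, peaks were listed in muscle for 2 of 5 of muscle stem cells (Pax7 and Itga7), 0 of 5 of muscle fibres (Acta1, Ckm, Mb, Myh4 and Tnnt3), 1 of 5 of macrophages (Itgam), 2 of 3 of fibroblasts (Pdgfra and Col1a1) and 1 of 2 of endothelium (Cdh5). Other genes of fibres and of macrophages, such as Ttn, Tcap and Des or Mrc1 and Siglec1, named after their values were seen, do have muscle peaks, so a marker without a peak does not show that the cell type's transcripts are missing. In C2C12 peaks were listed for 2 of 5 of muscle stem cells (Pax7 and Cdh15), 2 of 3 of fibroblasts (Pdgfra and Col1a1) and none of the other 3 types.

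Muscle fibres are torn by contraction and by injury, and the tear is closed within seconds by vesicles and calcium-binding proteins that gather at it. Dysferlin (Dysf), a membrane protein that senses calcium, acts with annexins A1, A2 and A6, which bind phospholipids in the presence of calcium, and with caveolin-3 (Cav3), the caveolin of muscle fibres. AHNAK is a giant scaffold protein, most of it made of tandem repeats, that binds dysferlin and the annexin A2 and S100A10 complex at the cell membrane. Dystrophin (Dmd), its relative utrophin (Utrn) and β-sarcoglycan (Sgcb) belong to the complex that ties the cytoskeleton to the matrix and keeps the membrane from tearing. Loss of dysferlin, caveolin-3, dystrophin or β-sarcoglycan causes muscular dystrophy or related myopathy.

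Ahnak had 16 peaks in day 2 muscle, more than any other gene of the table but Ttn, the gene of the giant sarcomere protein titin, which had 27. The gene next below Ahnak was Zbtb20 with 13, and 75% of the muscle genes had 1 peak. The Ahnak gene lies on chr19:8989284-9076935 of GRCm38, a span of 87.7 kb that no other annotated gene overlaps. Of its muscle peaks 15 were annotated to the coding sequence (CDS) and 1 to an exon, where 31.9% of all muscle peaks were annotated to the CDS. Each was a single block, and together they covered 7988 bp between 13.5 and 29.2 kb from the start site. Most of the gene's span therefore holds no listed peak.

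The fold enrichment of IP over input, the authors' ratio for a peak, ran from 1.15 to 12.5 over the 16 Ahnak peaks, with a median of 2.87. None of them reached the median of all muscle peaks, 12.9, and the median of all CDS peaks was 26.6. The highest value, 12.5, belonged to the peak at chr19:9013888-9014487, 24.6 to 25.2 kb from the start site, and lay at the 49.2nd percentile of all peaks and the 36.6th of CDS peaks. Ahnak thus had many peaks and each was of low or middle enrichment.

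Besides that peak, 2 peaks stood out by enrichment. The peak nearest the start site, at chr19:9002774-9003254, had a fold enrichment of 9.63. The longest, at chr19:9016104-9018231, had 9.25 over 2128 bp. These 3 peaks lie apart from each other, with weaker peaks between them.

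Between 14.3 and 17.8 kb from the start site the peak at chr19:9003613-9003793 had a fold enrichment of 1.15, the lowest of the gene. The peak at chr19:9004811-9004991 had 1.75, and that at chr19:9005530-9005920 had 6.58. The next 2, at chr19:9006339-9006579 and chr19:9006848-9007118, had 2.45 and 2.94. Only the peak of 6.58 in this stretch was above the gene's middle range.

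Farther on, the peak at chr19:9008106-9008735 had a fold enrichment of 2.79 over 630 bp. The 1170 bp peak at chr19:9009514-9010683 had 5.54, and its neighbour at chr19:9010772-9011282 had 4.7. The peak at chr19:9011371-9011581 had 1.7 and the one at chr19:9013289-9013558 had 1.87. Beyond the strongest peak, those at chr19:9014696-9014876 and chr19:9015176-9015505 had 1.83 and 3, and the exon peak at chr19:9018321-9018531 had 1.39. The weakest peaks were short. Over the 16 peaks the enrichment followed the length with a Spearman's rank correlation of 0.84, where all 1726 CDS peaks gave 0.78, and it showed no trend with distance from the start site (a rank correlation of 0). The peaks of 1 gene share their libraries and transcript, so these coefficients are descriptions with no test.

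**Figure D1:**
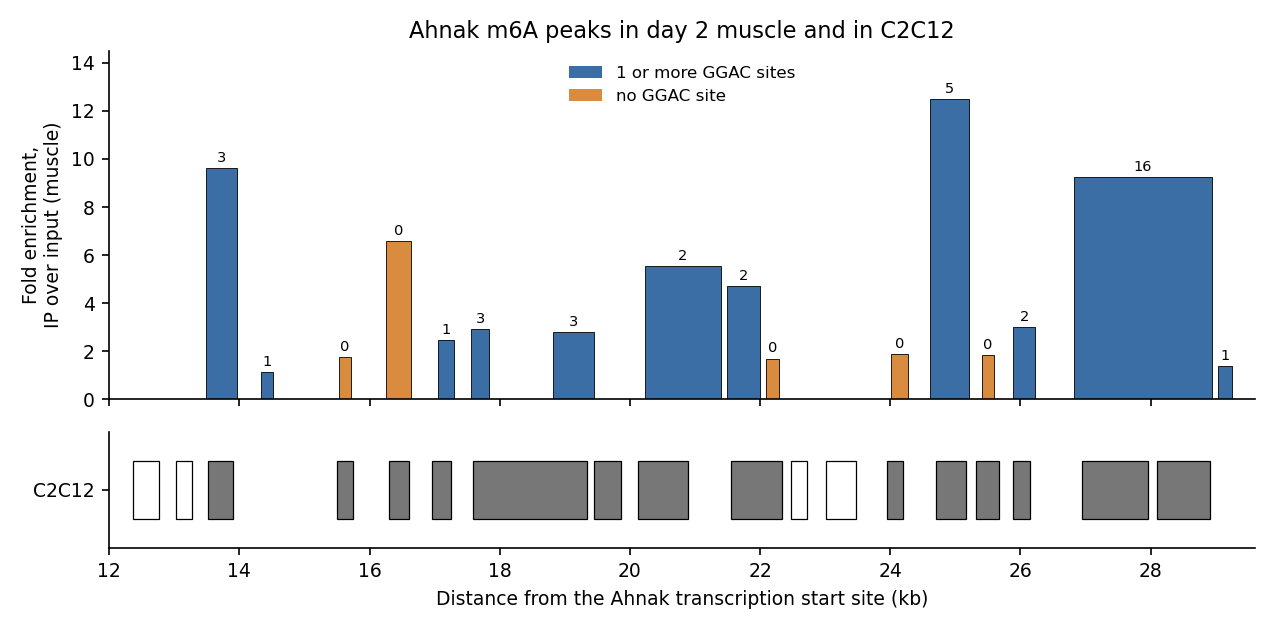
Listed m6A peaks of Ahnak along the distance from its transcription start site in kb. Bars in the upper panel are the 16 muscle peaks, drawn to their width, with the fold enrichment of IP over input as height and the number of GGAC sites above. Boxes in the lower panel are the 18 C2C12 peaks, grey where they share at least 1 base with a muscle peak and white where they share none. The highest bars, 12.5, 9.63 and 9.25, lie apart from each other, and the 4 white boxes lie at 12.6, 13.2, 22.6 and 23.2 kb.

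The p-values of the Ahnak peaks, which set IP against input and not genotype against genotype, were among the smallest of the table although the enrichment was low. They were listed as 0 for 11 of the 16 peaks (68.8%), against 17.2% of all muscle peaks. The log10 of p was -19200 for the peak nearest the start site, rank 4 of the 5005 peaks with a readable value, and -10100 for the longest peak, rank 8. At the other end it was -17.8 for the exon peak and -28.3 for the peak of 1.15-fold. Among the 2663 peaks with a fold enrichment of 12.5 or less, a p of 0 was listed for 108 (4.06%), in 69 genes. Ahnak with 11 was second among these genes to Ttn with 19. The p-value of a peak grows smaller with the number of reads as well as with the enrichment, and since the reads are not given, their part in these values was not tested.

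Ttn, which was chosen for this comparison after its values were seen, had fold enrichments of 1.16 to 8.13 with a median of 2.53, close to the 2.87 of Ahnak, and 26 of its 27 peaks were in the CDS. Zbtb20, with 12 of its 13 peaks in the 3′UTR, ranged from 2.1 to 239. The low and narrow range of Ahnak was thus also seen in Ttn, and it was not seen in Zbtb20. Ttn and Zbtb20 had no C2C12 peak.

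**Figure D2:**
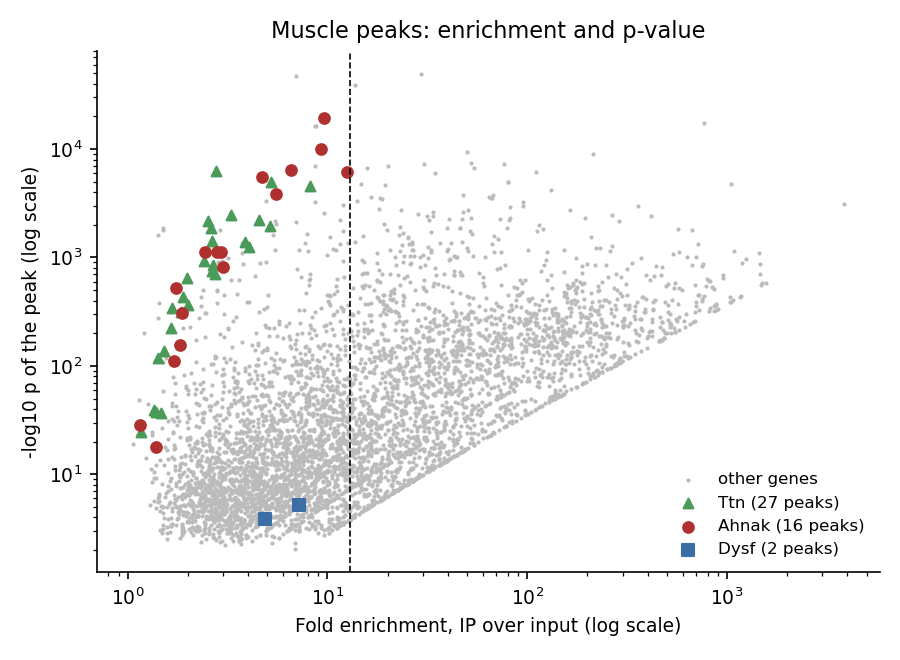
Fold enrichment of IP over input (horizontal, log scale) and -log10 of the peak's p (vertical, log scale) for the muscle peaks with a readable p. Points are peaks, the dashed line is the median fold enrichment of 12.9. The Ahnak (circles) and Ttn (triangles) peaks lie to the left of the line and mostly high, and the 2 Dysf peaks (squares) lie left and low.

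GGAC is a form of the sequence in which METTL3 methylates adenosine, and the authors' table lists its positions in each muscle peak. Ahnak peaks held 39 such sites. At least 1 was listed in 11 of the 16 peaks (68.8%), against 70.6% of all muscle peaks and 84.5% of CDS peaks, and the density was 4.88 sites per kb against 5.04 in all CDS peaks. The share was thus near that of all peaks and below that of CDS peaks, the class of 15 of the 16, while the density was near that of CDS peaks. The longest peak held 16 of the sites (41%), and the strongest held 5. The 5 peaks without a site had fold enrichments of 1.7 to 6.58 with a median of 1.83, and the 11 with a site 1.15 to 12.5 with a median of 3. The ranges overlapped, and the gap was narrower than that between the medians of all CDS peaks without and with a site, 5.03 and 37.9. The peak of 6.58 at chr19:9005530-9005920 had no GGAC and a log10 p of -6400, rank 18. The number of sites followed the enrichment with a Spearman's rank correlation of 0.65 in Ahnak and 0.64 over all CDS peaks. A longer peak can hold more sites, and the length itself gave 0.84 and 0.78. Whether the sites followed the enrichment apart from length was not tested.

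**Figure D3:**
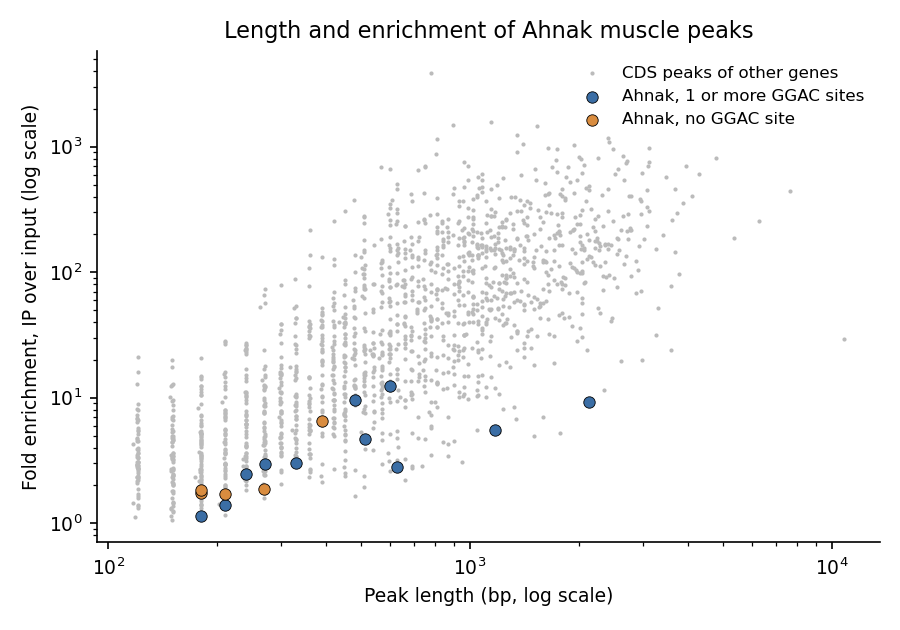
Length in bp (horizontal, log scale) and fold enrichment of IP over input (vertical, log scale) of the CDS muscle peaks of other genes (grey) and of the 16 Ahnak peaks, blue with and orange without a GGAC site. The Ahnak peaks run from 1.15 to 12.5 and are mostly higher where longer, and the longest, of 2128 bp, has 9.25.

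In C2C12, the 18 Ahnak peaks lay between 12.4 and 28.9 kb from the start site and covered 9445 bp, which was also the largest covered length of any gene of the list. They were 235 to 1760 bp long with a median of 397 bp, where all C2C12 peaks had a median of 285 bp. The gaps between them were 97 to 1594 bp with a median of 295 bp. All 18 were annotated to an intron, as were 12.4% of all C2C12 peaks. Since the rule used this annotation, nothing is read from it. The C2C12 list gives no height, so which of the 18 was strongest is not known.

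The tables could not be joined by position. The labels name mm10, the same build as GRCm38, and 98.4% of the muscle peaks with a matched gene lay on that gene's GRCm38 span, but 9.46% of the C2C12 peaks did, and 2 of the 18 Ahnak peaks. The C2C12 build is not settled, so its positions are given only as distances from the start site. The 18 listed distances lead back to a single start site within 0.5 bp. Muscle peaks were placed by their distance from the GRCm38 start at position 8989284. This assumes that both builds hold the same sequence between the start site and the peaks and that both start sites are the same, which was not tested.

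On this scale 14 of the 16 muscle peaks shared a base with a C2C12 peak, and each of these 14 was covered over at least 50% of its length. Conversely, 14 of the 18 C2C12 peaks shared a base with a muscle peak, 12 of them over at least 50%. The shared bases numbered 6104, which is 76.4% of the bases of muscle peaks and 64.6% of those of C2C12 peaks. Over the stretch of 16.9 kb that holds all peaks, muscle peaks covered 47.3% and C2C12 peaks 56%, and both together 36.2%. With this coverage many peaks would share a base wherever in the stretch they lay. The C2C12 gaps had a median of 295 bp, and the muscle peaks had a median length of 300 bp. Whether the sharing goes beyond this was not tested. The muscle peaks of 12.5, 9.63 and 9.25 were covered over 76.8%, 81.9% and 86%. The 2 muscle peaks without a C2C12 peak were those with the lowest enrichments, 1.15 and 1.39, and the shared ones had 1.7 to 12.5. The 4 C2C12 peaks that shared no base with muscle lay at 12.6 and 13.2 kb, before the first muscle peak, and at 22.6 and 23.2 kb, in the widest gap of the muscle peaks.

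If that untested assumption about the builds holds, the same stretch of Ahnak was annotated mostly to CDS in one table and to an intron in the other. The muscle table has no intron class, its 6 classes being CDS, exon, both UTRs, start codon and stop codon. The C2C12 list ties all 18 Ahnak peaks to 1 RefSeq transcript, whose exons were not used here. Whether the annotations differ by gene model or by the RNA captured was not tested.

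Of the 348 genes whose C2C12 peaks were all in introns, 59, Ahnak among them, were in the muscle table. Ahnak was chosen by this annotation, so it is left out of the comparison. Without Ahnak, 25 of the 81 muscle peaks of these genes (30.9%) were in the CDS, near the 31.9% of all muscle peaks. Among genes with a C2C12 peak outside introns the share was 38.3%. With Ahnak the share was 40 of 97 (41.2%), from which nothing is read. The genes nearest to Ahnak by number of C2C12 intron peaks were Grk5, a receptor kinase, with 7 of 7, Abr with 6 of 7, and 4930578N18Rik, Coro2b and Ctse, with 6 of 6 each. Of these 5, only Grk5 had a muscle peak, 1, and it was in neither the CDS nor the 3′UTR.

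Dysf, on chr6:84008361-84211060, had 2 muscle peaks and none in C2C12. The peak in the CDS, at chr6:84116129-84116279, was 151 bp long with a fold enrichment of 7.2, at the 34.5th percentile, and a p of 6.8e-06 from the peak caller. The peak in the 3′UTR, at chr6:84210850-84211030, was 181 bp long and ended 30 bp before the end of the gene, with a fold enrichment of 4.87 and a p of 0.00013. Each held 1 GGAC site. Both lie below the median enrichment, as the Ahnak peaks do, but their p-values were among the larger ones of the table, ranks 4407 and 4710 of 5005 by log10 p.

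Of the annexins among the 9 genes, Anxa6, on chr11:54978953-55033471, had a single C2C12 peak, annotated to the 3′UTR. It was 203 bp long and lay 54026 bp from the start site of a gene that spans 54519 bp. The peak's length was at the 9.09th percentile of C2C12 peaks. Anxa6 had no peak in muscle. Anxa1 (chr19:20373434-20390671) and Anxa2 (chr9:69453683-69491792) had none in either table.

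Cav3 (chr6:112459505-112472872), Sgcb (chr5:73632749-73647737), Utrn (chr10:12382187-12869888) and Dmd (chrX:82814664-85205050) also had no listed peak. By genomic span, introns included, Dmd, with 2390387 bp, and Utrn, with 487702 bp, are far longer than Ahnak. The assay reads mRNA, whose length was not used here. Of the 9 genes, 2 (22.2%) had a peak in muscle and 2 in C2C12, beside 16.9% of 21900 protein-coding genes in muscle and 17.6% in C2C12.

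Around these genes a list of 74 genes of membrane repair was described in 5 groups, the 9 genes included. Of the 74, 22 (29.7%) had a muscle peak and 26 (35.1%) a C2C12 peak, 11 had both and 37 had neither. Without the 9 genes it was 20 and 24 of 65 (30.8% and 36.9%). For genes at least as long as the list's median span of 34.3 kb, the shares among protein-coding genes were 24.4% in muscle and 21.1% in C2C12. The list's shares were above these backgrounds, which is a description and no test. They include the list's genes shorter than that median, and the backgrounds are not limited to expressed genes. The span includes introns, and the length of the mRNA was not used. With current symbols only, the list's share in C2C12 was 28.4% in place of 35.1%.

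Of the 5 groups, the ferlin, caveola and repair group, to which Ahnak, Dysf and Cav3 belong, had the highest share of genes with a peak. In it 12 of 18 genes (66.7%) had a muscle peak and 9 (50%) a C2C12 peak, and each of those 9 was also in muscle. Among all protein-coding genes the shares were 16.9% and 17.6%. The group's counts include Ahnak, which was chosen by its C2C12 peaks. The list was also chosen with earlier results known, so these shares are a description only. Over all genes, counted by symbol as listed, 3980 were in muscle, 3970 in C2C12 and 6392 in either. Most listed genes were thus in only 1 of them. All 4 cavins, the coat proteins of caveolae, had peaks in both tables. Cavin2 had the highest fold enrichment of the group, 1190, at the 99.8th percentile, in its 3′UTR. Ahnak2, the close relative of Ahnak, had 2 CDS peaks with a highest fold enrichment of 189 and 19 GGAC sites, and no peak in C2C12. Cav1, the caveolin of cells other than muscle fibres, had 3 muscle peaks with a highest value of 97.5 and 1 in C2C12, where Cav3 had none in either table. Ahnak, at 12.5, was thus below its relative in enrichment and above it in number of peaks.

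Of the 22 genes of the dystrophin complex and its glycosylation, 4 (18.2%) had a muscle peak and 8 (36.4%) a C2C12 peak. Among all protein-coding genes the shares were 16.9% and 17.6%, so the muscle share was near that of all genes. Sspn, the gene of sarcospan, had the highest fold enrichment, 716, and Dag1, the gene of dystroglycan, had 123. Dag1 had 2 muscle peaks and 4 C2C12 peaks, the latter in coding exons. Dmd, Utrn and Sgcb were among the 12 genes of this group with a peak in neither table, and nothing is read from this.

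Among 15 annexins and S100 partners, 1 had a muscle peak, Anxa11, with a fold enrichment of 5.88, and 5 had a C2C12 peak, among them Anxa6. S100a10, whose protein links annexin A2 to AHNAK and which was named after its values were seen, had 2 C2C12 peaks, 1 in an intron and 1 in a coding exon. Of the 10 ESCRT genes, whose proteins cut damaged membrane away, 3 had a muscle peak, Chmp1a with 18.6, Pdcd6 with 4.11 and Chmp3 with 3, and 2 other genes had a C2C12 peak. Of the 9 genes of vesicle fusion and lysosome exocytosis, Rab27a with 20.1 and Snap23 with 15.9 had a muscle peak, and 2 others had a C2C12 peak. No gene of these last 3 groups was listed in both tables. Most of all listed genes were not either, with 3980 in muscle, 3970 in C2C12 and 6392 in either, so nothing is read from this.

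**Figure D4:**
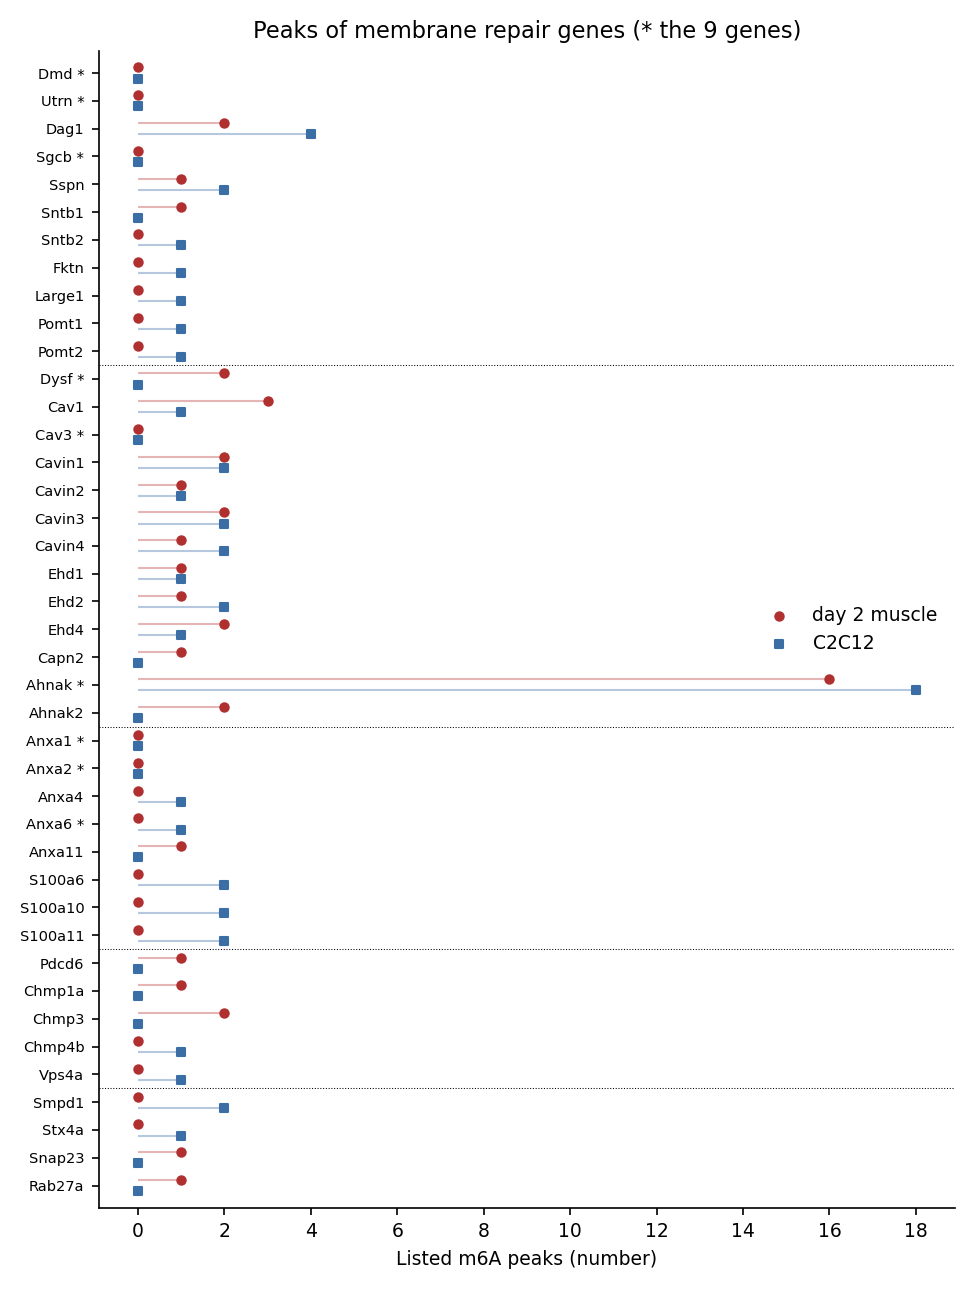
Number of listed m6A peaks in day 2 muscle (circles) and in C2C12 (squares) for most genes of the membrane repair list with a peak and for the 9 genes (asterisks), with the 5 groups parted by dotted lines. The 31 other genes of the list with no peak in either table are left out. Ahnak has 16 and 18 peaks, and no other gene of the list has more than 4 in either table.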

How the data were processed

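m6A MeRIP-Seq libraries of muscle (1 IP and 1 input per genotype) and of C2C12 (2 IP, 1 input) were described from the peak tables. Samples were assigned by the labels. Mapping and peak calling were done by the authors, who deposited 1 peak table for each. The submitters' processing notes name TopHat, MACS2 and mm10 with no role, and the muscle column names are those exomePeak writes. In the muscle table the authors deposited for each peak a ratio, the fold enrichment of the IP against the input, the peak's p-value, its log10 value (held as a score, unreadable in 407 cells) and GGAC positions. The columns of the authors' differential test between genotypes (log2 fold, p and FDR) hold their own comparison and were not used. The deposited C2C12 list gives positions, annotation and distances to the start site. There were 0 unmatched columns of per-sample values. The tables hold no counts, so the depth and the precision are unknown.

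Computation used Python 3.11.15 with scipy 1.17.1, numpy 2.4.6 and pandas 2.3.3, and matplotlib 3.10.9 drew the figures. Symbols were matched to RefSeq (GRCm38), older symbols included where they name a single gene, for 3808 of 3980 muscle and 3954 of 3970 C2C12 genes. Some muscle symbols were turned into dates by a spreadsheet and were left as listed. Overlap meant at least 1 shared base. The functions for overlaps and ranks were tested on simulated data. The genes and lists were chosen with earlier results of these data known. The genes named were the 9 genes, in each group of the list up to 3 with the highest muscle fold enrichment and all with at least 3 C2C12 peaks, the 5 other genes with the most C2C12 intron peaks, and the genes next below Ahnak in number of peaks. Of these, 2 are not reported here. A gene outside this rule is said to have been named after its values were seen, as are the cavins and the markers with a peak, which are named by group. Alternatives for the peak that stands for a gene, filters, merging, symbols and overlap were tried.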

Additional observations from a re-analysis of the deposited data

How the results depend on the processing

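Of 23 alternatives, 16 left the value within 1.5 times of the one given and 7 moved it. All these values are counts, ranks, percentiles, shares or enrichments without a sign, so no direction could be reversed. Taking the mean of its peaks in place of the strongest brought the muscle fold enrichment of Ahnak from 12.5 to 4.32. A filter at the median fold enrichment left 0 of the 16 Ahnak peaks and 0 of the 2 Dysf peaks, and brought the share of the repair list in muscle from 29.7% to 16.2% and the background from 16.9% to 10.1%, the last chosen after seeing the data. Asking for at least 2 GGAC sites brought the share of the 18 muscle peaks of the 9 genes from 72.2% to 44.4%. By covered length Anxa6 had rank 3677 in place of 1024 in C2C12. Merging peaks less than 200 bp apart left 14 of the 18 Ahnak peaks in C2C12. The share with a GGAC site was not computed under the enrichment filter, which left no peak of the 9 genes, and leaving out a C2C12 IP library was not run, since the list has no values per library. No paired analysis was possible because the tables hold 1 pooled value per peak and no values per library. With depth unknown, a missing peak sets no limit on the m6A of a gene.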

Other observations

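Within the Ahnak muscle peaks, 28 gaps separate neighbouring GGAC sites of the same peak. Of these, 14 (50%) were divisible by 3, the length of a codon, beside 43.8% of the 3294 gaps in the CDS peaks of other genes. The only gap length seen more than once in Ahnak was 11 bp, which occurred 3 times, while 17 of the 3294 other gaps (0.516%) had it. These values were picked after they were seen and carry no test.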
